A study of Homo sapiens and Mus musculus with 12 samples.

Results

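The genes described here encode the proteins of the mitochondrial ribosome and were chosen by symbol: every gene whose name is MRPL or MRPS followed by a number and, at most, a letter A to C, in upper or lower case. In RKO cells, a human colon cancer line, 74 of the 15590 genes with values were members, 46 named for the large subunit (MRPL) and 28 for the small subunit (MRPS). In mouse colon 77 of 17383 genes were members, 48 large and 29 small. Mrpl30, Mrpl57 and Mrps18b were members in the mouse table alone and were not analysed in RKO. All 74 and all 77 members passed the filter on low values, which kept genes with a mean of 1 or more.

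RNA was sequenced from 12 libraries. The RKO cells carried a tetracycline-inducible short hairpin RNA against ZNF280C, a zinc finger protein, and were cultured for 72 h with 1 ug/ml doxycycline (3 libraries) or without it (3 libraries). The mouse libraries were made from the colon of C57BL/6J animals aged 12 weeks, 3 with a knock-out of Zfp280c, the mouse counterpart, and 3 wild-type. All 6 RKO libraries carry the hairpin construct, and doxycycline was given to the knockdown group only, so doxycycline and the loss of ZNF280C cannot be told apart. Doxycycline belongs to the tetracyclines, antibiotics that bind bacterial ribosomes and are known to slow translation in mitochondria. The labels do not say whether the libraries of a group came from separate cultures or animals, and the p-values measure the spread between these libraries, which may be technical. Colon tissue holds many cell types, the labels do not name the segment taken, and fewer cells of a type cannot be told apart from less RNA per cell.

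Mitochondria keep their own ribosomes, which translate the 13 messenger RNAs encoded by mitochondrial DNA, all for subunits of the oxidative phosphorylation complexes. The proteins of these ribosomes are encoded in the nucleus, made in the cytosol and imported. The small subunit binds the messenger RNA and decodes it, and the large subunit joins the amino acids. Some of the proteins sit where a bacterial ribosome has a related protein, and others were added in mitochondria. Colon epithelium renews itself constantly and its differentiated cells are rich in mitochondria.

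The promoters of the members with the lowest p-values in RKO, the first and the next of each subunit, are shown because the RKO results below start from these members. Each line holds the 250 bases before the RefSeq transcription start in GRCh38.p14, 5′ to 3′ on the gene's strand, with matches to the searched motifs in capitals. The windows are chr12:27710582-27710831 (plus strand) for MRPS35, chr6:42217862-42218111 (minus strand) for MRPS10, chr2:223957213-223957462 (plus strand) for MRPL44 and chr11:73787624-73787873 (plus strand) for MRPL48.
MRPS35: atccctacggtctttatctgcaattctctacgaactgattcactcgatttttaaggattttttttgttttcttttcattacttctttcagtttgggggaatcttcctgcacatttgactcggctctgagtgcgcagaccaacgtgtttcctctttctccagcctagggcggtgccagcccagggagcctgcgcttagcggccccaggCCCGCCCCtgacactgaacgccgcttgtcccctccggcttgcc
MRPS10: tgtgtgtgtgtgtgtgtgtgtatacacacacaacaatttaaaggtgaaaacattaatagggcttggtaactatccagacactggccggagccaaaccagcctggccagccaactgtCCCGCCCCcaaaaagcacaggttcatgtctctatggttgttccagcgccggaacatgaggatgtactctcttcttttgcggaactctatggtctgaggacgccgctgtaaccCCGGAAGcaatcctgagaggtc
MRPL44: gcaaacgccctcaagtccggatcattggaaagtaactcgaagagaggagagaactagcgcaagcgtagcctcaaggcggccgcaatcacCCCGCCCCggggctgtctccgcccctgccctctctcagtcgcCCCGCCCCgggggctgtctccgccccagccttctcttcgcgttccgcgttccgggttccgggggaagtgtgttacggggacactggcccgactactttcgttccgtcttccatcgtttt
MRPL48: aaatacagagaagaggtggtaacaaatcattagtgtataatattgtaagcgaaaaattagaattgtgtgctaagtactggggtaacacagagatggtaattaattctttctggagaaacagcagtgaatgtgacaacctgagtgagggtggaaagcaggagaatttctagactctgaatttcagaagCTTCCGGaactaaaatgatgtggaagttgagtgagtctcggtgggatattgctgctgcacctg
The capitals mark GGGGCGGG, a core of sites bound by SP1, and CCGGAAG, a core of sites bound by ETS factors, each on either strand. RefSeq promoters were found for 65 of the 74 RKO members, 39 large and 26 small. CCGGAAG was present in 21 of these 65 promoters (32.3%), in 12 large and 9 small subunit genes, against 16.5% of the 9084 promoters of genes in the RKO table. GGGGCGGG was present in 26 (40.0%) against 38.9%. The motif of NRF1, a factor known for driving nuclear genes of mitochondria, was present in 6 (9.23%) against 10.9%. The motif of YY1 was present in 1 (1.54%) against 0.826%. The median log2 fold change in RKO was -0.054 for members with CCGGAAG and -0.036 for those without it, while in colon it was -0.083 with and -0.118 without. For GGGGCGGG the RKO medians were -0.031 with and -0.039 without, and for the NRF1 motif -0.016 with and -0.039 without. A match describes the letters of the window and is not a measured binding site.

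Levels are given as the deposited signal in RKO, on the scale of normalized read counts, and in colon as FPKM, fragments per kilobase of transcript, scaled to the library. Differences are log2 fold changes from limma, a linear model fitted to all genes of a table. The targeted gene was examined first. ZNF280C had a mean signal of 100.6 ± 22.1 (SD, n = 3) with doxycycline and 197 ± 27.5 (n = 3) without, a log2 fold change of -0.98 ± 0.15 (SE; limma, adjusted p = 0.0276). This call was lost with a block for the replicate numbers or for the libraries that share equal values (limma, adjusted p = 0.0991 and 0.0769), and on leaving out any 1 library other than doxycycline replicate 1. Zfp280c had 0.133 ± 0.0751 FPKM in knock-out colon and 2.63 ± 0.479 FPKM in wild-type, a log2 fold change of -1.67 ± 0.14 on the log2(FPKM + 1) scale (limma, adjusted p = 0.123). The groups did not overlap for either gene, and the exact two-sided permutation p was 0.1 for each, the smallest that 3 against 3 allows. Markers of colon epithelium were present in every mouse library, with Epcam between 917 and 1061 FPKM. By a score of genes that differ along the length of the colon, wild-type replicate 2 (2.52) lay among the knock-outs (1.92 to 3.08) and apart from the other wild-types (-1.60 and -4.05). Among the RKO libraries, doxycycline replicate 2 and untreated replicate 2 held exactly equal values in 310 genes, and doxycycline replicate 3 and untreated replicate 1 in 526 genes, with no member among them.

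No member passed the test in RKO cells. Of the 74 members, 0 had an adjusted p under 0.05 (limma, Benjamini-Hochberg over all genes), where 1.14% of all genes tested did (0.757% lower and 0.385% higher). An unadjusted p under 0.05 was reached by 4 members, all with lower values under doxycycline, or 5.41% of members against 10.2% of all genes. None reached it with higher values, against 6.82% of all genes. Values under doxycycline lay entirely below those without it in 14 members (18.9%, against 13.3% of all genes) and entirely above in 1 (against 8.65%). The log2 fold changes were small, from -0.20 to 0.18 with a median of -0.038, against -0.012 over all genes. They were negative in 55 of 74 members (74.3%, against 55.1% of all genes), and in 47 to 49 under 3 other scalings of the libraries.

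**Figure D1:**
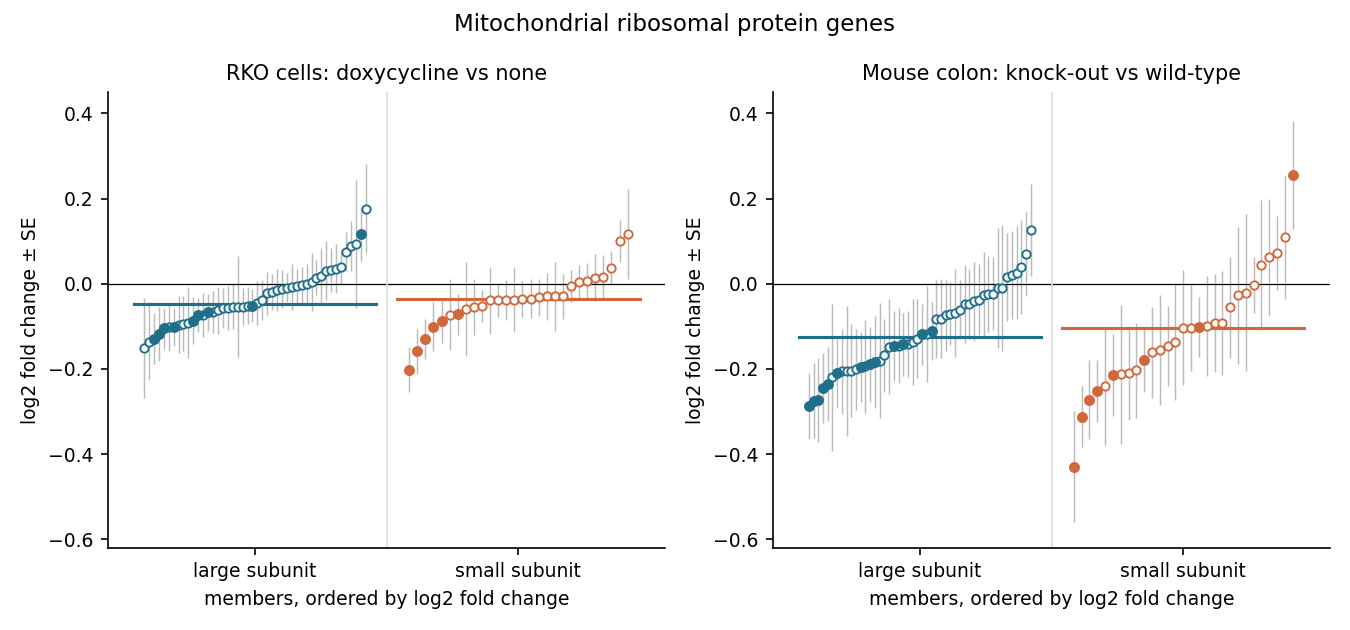
Log2 fold change of each member in RKO cells (doxycycline against none) and in mouse colon (knock-out against wild-type), by subunit, with 1 point per gene, its SE as a bar, the median as a line, and filled points where the groups do not overlap. The RKO points lie between -0.20 and 0.18 and the colon points between -0.43 and 0.25, with medians below 0 in both subunits and both comparisons.

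The small subunit held the members with the lowest p-values in RKO. MRPS35, a small subunit protein with no bacterial counterpart, had a signal of 675, 598 and 656 with doxycycline and 704, 764 and 749 without. All 3 treated libraries were below all 3 untreated ones. Its means were 643 ± 40.3 and 739 ± 31.5 (SD, n = 3 each) and the log2 fold change was -0.20 ± 0.05 (limma, adjusted p = 0.0971), and it ranked at place 556 of all genes by p. MRPS10, the counterpart of a bacterial protein in the head of the small subunit, had 346, 309 and 317 with doxycycline and 359, 368 and 357 without. These groups did not overlap either, and the log2 fold change was -0.16 ± 0.05 (limma, adjusted p = 0.159). MRPS22, in which variants are known to cause mitochondrial disease, had 374, 360 and 394 with doxycycline and 401, 421 and 412 without. The treated libraries were again lower, with a log2 fold change of -0.13 (limma, adjusted p = 0.204).

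The next small subunit members were less clear. MRPS18C, a counterpart of bacterial S18, had 202, 181 and 195 with doxycycline and 207, 204 and 208 without. MRPS31, a protein added in mitochondria, had 153.1, 149.6 and 150.3 against 157.6, 162.4 and 161.2. The groups did not overlap in either gene, and the log2 fold changes were -0.10 (limma, adjusted p = 0.413) and -0.087 (limma, adjusted p = 0.460). MRPS18C was at -0.056 without doxycycline replicate 2. MRPS12, the counterpart of a protein at the bacterial decoding centre, ran the other way, with 431, 421 and 398 against 404, 387 and 374. Its lowest treated library lay below its highest untreated one, and the log2 fold change was 0.10 (limma, adjusted p = 0.340).

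Large subunit members of RKO gave similar sizes. MRPL44, a protein near the exit tunnel, had a signal of 352, 362 and 373 with doxycycline and 396, 378 and 392 without. The groups did not overlap, and its log2 fold change was -0.10 ± 0.04 (limma, adjusted p = 0.279). MRPL48 had 163.2, 155.4 and 155.0 against 163.4, 179.6 and 175.3, so that the nearest treated and untreated libraries almost touched. Its log2 fold change was -0.13 (limma, adjusted p = 0.310). MRPL50 had 384, 351 and 353 against 388, 394 and 387, also without overlap, and a log2 fold change of -0.10 (limma, adjusted p = 0.312). Neither of these proteins has a bacterial counterpart. MRPL27, whose bacterial relative reaches towards the peptidyl transferase centre, had 153.3, 139.7 and 149.9 against 154.8, 168.8 and 157.0 (log2 fold change -0.12). MRPL11, the relative of a protein at the base of the ribosomal stalk, had 452, 445 and 455 against 472, 485 and 465 (-0.073). Both were lower in every treated library. MRPL3 had 1119, 984 and 1076 against 1179, 1164 and 1067, with overlap (-0.10, and -0.050 without doxycycline replicate 2).

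Values above the untreated libraries were rare in RKO. MRPL33 was singled out after its values were seen, as the 1 member with all treated libraries above all untreated ones. It had 111.7, 117.0 and 120.8 with doxycycline and 105.9, 105.5 and 110.9 without, a log2 fold change of 0.12 (limma, adjusted p = 0.401). MRPL12, a protein of the ribosomal stalk, was also singled out for the highest fold change, 0.18 (limma, adjusted p = 0.445). Its signal of 85.7, 66.9 and 75.7 overlapped the untreated 68.0, 72.5 and 60.6. Its fold change was 0.088 without doxycycline replicate 1, 0.11 without untreated replicate 3, and 0.10 after correction for the GC content of transcripts.

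**Figure D2:**
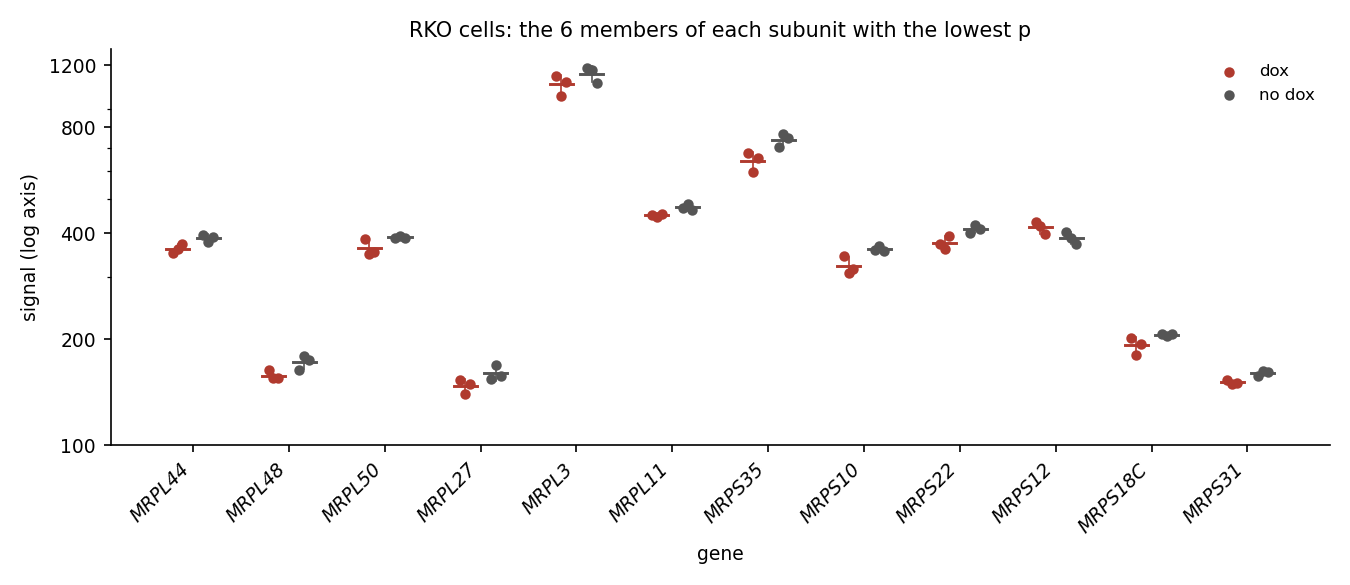
Signal of named members in each of the 6 RKO libraries, on a log axis, with 1 point per library, the group mean as a horizontal line and the SD as a vertical one. MRPS35, MRPS10, MRPS22 and MRPL44 are lower in all 3 doxycycline libraries, and MRPS12 overlaps between the groups.

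The RKO fold changes followed the GC content of the transcripts. Over the 74 members the Spearman correlation of log2 fold change with GC content was 0.617 (0.619 in the large and 0.624 in the small subunit), against 0.443 over the 13118 genes with a GC content. These points share the same 6 libraries. MRPL41, at 71.9% GC the richest member, had a log2 fold change of 0.075, and MRPL13, at 33.5% the poorest, had -0.073. With the trend against GC content removed, 50 of 74 members were negative. The median became -0.018, against 0.00045 over all genes in that fit. Then 3 members had an unadjusted p under 0.05 with lower values (against 7.45% of the genes) and 1 with higher values (against 6.62%). Among the named members, removing the trend took MRPL50 from -0.10 to -0.011, MRPS18C from -0.10 to -0.027, MRPS31 from -0.087 to -0.017, MRPS22 from -0.13 to -0.063 and MRPL3 from -0.10 to -0.049. MRPS10 went from -0.16 to -0.100, MRPL44 from -0.10 to -0.065, MRPL27 from -0.12 to -0.076 and MRPS12 from 0.10 to 0.063, and MRPL23 from -0.067 to -0.12.

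**Figure D3:**
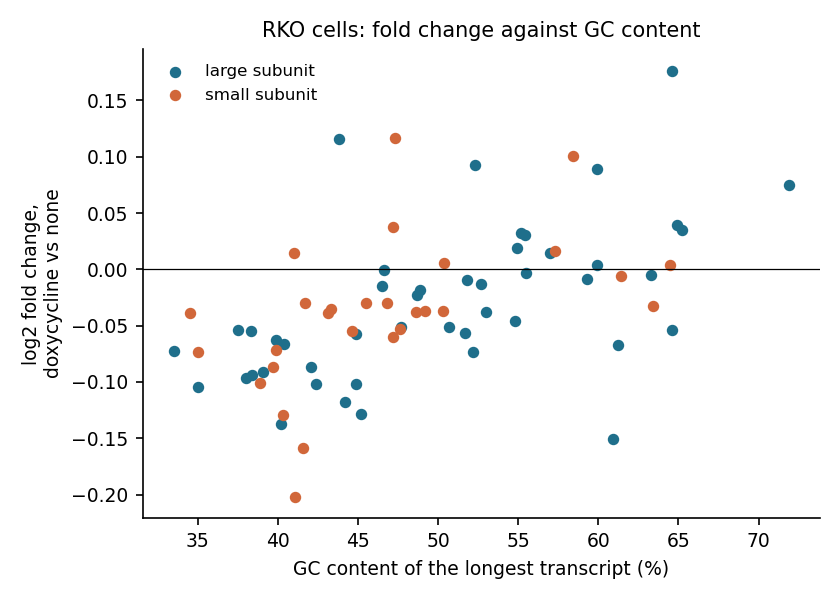
Log2 fold change of each member in RKO cells (vertical axis) against the GC content of its transcript in percent (horizontal axis), by subunit. Members with more GC tend to have higher fold changes in both subunits, with a Spearman correlation of 0.617 over 74 members.

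In mouse colon, where the values are FPKM and so per length, levels can be compared between members. The median level was 33.3 FPKM in the large subunit (4.81 to 162) and 32.3 FPKM in the small subunit (8.21 to 115), against 10.9 FPKM over all genes. Mrpl12 was the most abundant member, with 162.6, 155.6 and 157.6 FPKM in knock-out colon and 161.0, 171.9 and 163.8 FPKM in wild-type. Its lowest library was above the highest of every other member. Mrpl52 followed at 124 ± 12.9 FPKM (SD over all 6 libraries), Mrpl42 at 119 ± 12.7 FPKM and Mrps21 at 115 ± 14.1 FPKM, and these neighbours did not differ beyond their spread. The highest small subunit members after Mrps21 were Mrps18c and Mrps6. At the low end, Mrpl17 (4.81 ± 0.402 FPKM) and Mrpl19 (4.96 ± 0.653 FPKM) lay within each other's spread, and both lay below Mrpl1 (8.13 ± 0.369 FPKM). The lowest small subunit members by mean were Mrps25 at 8.21 ± 1.15 FPKM, Mrps11 at 10.4 ± 1.03 FPKM and Mrps30 at 12.3 ± 1.74 FPKM, each overlapping the next in its library values.

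Members varied less between libraries than genes in general. The coefficient of variation over the 6 colon libraries had a median of 9.83% in members and 13.2% over all genes, and in RKO it was 4.58% against 6.53%. Members also had higher levels, with medians of 32.6 FPKM against 10.9 FPKM in colon and 384 against 202 signal in RKO. Genes of matching level were not compared. The steadiest colon member was Mrps23, at 38.8, 39.5 and 39.2 FPKM in knock-out colon and 39.8, 38.5 and 39.3 FPKM in wild-type.

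No member passed the test in knock-out colon either. Of the 77 members, 0 were called, where 0.0% of the 11366 genes tested were, and the lowest adjusted p was 0.396 (limma). An unadjusted p under 0.05 was reached by 10 members (13.0%), all with lower values in knock-out, against 6.48% of all genes with lower values. None did so with higher values, against 6.02%. This count was 5 without knock-out replicate 2 (against 2.41% of all genes in that fit), 5 without wild-type replicate 3 (2.28%), 6 without knock-out replicate 3 (4.08%) and 16 without wild-type replicate 2 (14.7%). Knock-out values lay entirely below wild-type in 20 members (26.0%, against 9.79% of all genes) and entirely above in 1 (against 7.13%). The log2 fold changes ran from -0.43 to 0.25 with a median of -0.12, against -0.024 over all genes. Without knock-out replicate 2 the median was -0.067, against 0.014 over all genes in that fit. The fold changes were negative in 66 of 77 members (85.7%, against 55.4% of all genes), and in 61 to 64 under 3 other scalings.

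Of the small subunit members, Mrps21, a counterpart of bacterial S21, had the lowest p. It had 108, 99.2 and 100.1 FPKM in knock-out colon and 124, 130 and 128 FPKM in wild-type. Every knock-out library was lower, and the means were 102 ± 4.82 and 127 ± 2.77 FPKM (SD, n = 3 each) and the log2 fold change was -0.31 ± 0.07 (limma, adjusted p = 0.396). Mrps6 had the lowest fold change of all members, -0.43 ± 0.13 (limma, adjusted p = 0.396). Its levels were 60.0, 66.8 and 60.2 FPKM in knock-out colon and 93.4, 69.4 and 91.9 FPKM in wild-type, with wild-type replicate 2 close to the knock-outs. Mrps35 had 29.6, 30.2 and 29.4 FPKM against 34.6, 34.6 and 37.5 FPKM, again without overlap. Its means were 29.7 ± 0.429 and 35.6 ± 1.70 FPKM, a log2 fold change of -0.25 ± 0.07 (limma, adjusted p = 0.396). Mrps24, related to bacterial S3, had 40.1, 35.4 and 41.0 FPKM against 43.7, 47.0 and 50.5 FPKM (-0.27). Mrps16 had 50.7, 50.2 and 49.8 FPKM against 59.6, 51.9 and 64.6 FPKM (-0.21). All of these were lower in every knock-out library.

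In the large subunit Mrpl21 came first, with 24.3, 23.4 and 25.9 FPKM in knock-out colon and 31.4, 29.7 and 29.4 FPKM in wild-type. The groups were apart, and the log2 fold change was -0.29 ± 0.08 (limma, adjusted p = 0.396). Mrpl51, added in mitochondria, had 64.2, 63.5 and 60.8 FPKM against 76.8, 69.3 and 83.1 FPKM (-0.28). Mrpl9, related to bacterial L9, had 37.4, 35.2 and 37.3 FPKM against 45.2, 39.5 and 49.3 FPKM (-0.27). In both, wild-type replicate 2 was the lowest wild-type library and still above the knock-outs. Mrpl34 had 64.4, 57.4 and 66.8 FPKM against 72.9, 76.8 and 74.0 FPKM (-0.25). Mrpl42 had 114, 112 and 101 FPKM against 131, 119 and 136 FPKM (-0.24), and Mrpl48 had 34.7, 33.4 and 36.2 FPKM against 40.9, 37.6 and 42.9 FPKM (-0.21). None of these groups overlapped.

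A single member lay above wild-type in every knock-out library and was singled out for it after its values were seen. Mrps31 had 32.1, 31.9 and 31.4 FPKM in knock-out colon and 27.2, 31.0 and 22.0 FPKM in wild-type, a log2 fold change of 0.25 ± 0.13 (limma, adjusted p = 0.417). It was 0.13 without wild-type replicate 3 and 0.017 with the colon position score as a covariate. Mrpl50, also singled out later, had 25, 21.4 and 23.3 FPKM against 21.8, 23.2 and 18.7 FPKM, with overlap (0.13). Its fold change was 0.072 without knock-out replicate 1, 0.19 without wild-type replicate 2, 0.041 without wild-type replicate 3 and -0.040 with the position covariate.

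**Figure D4:**
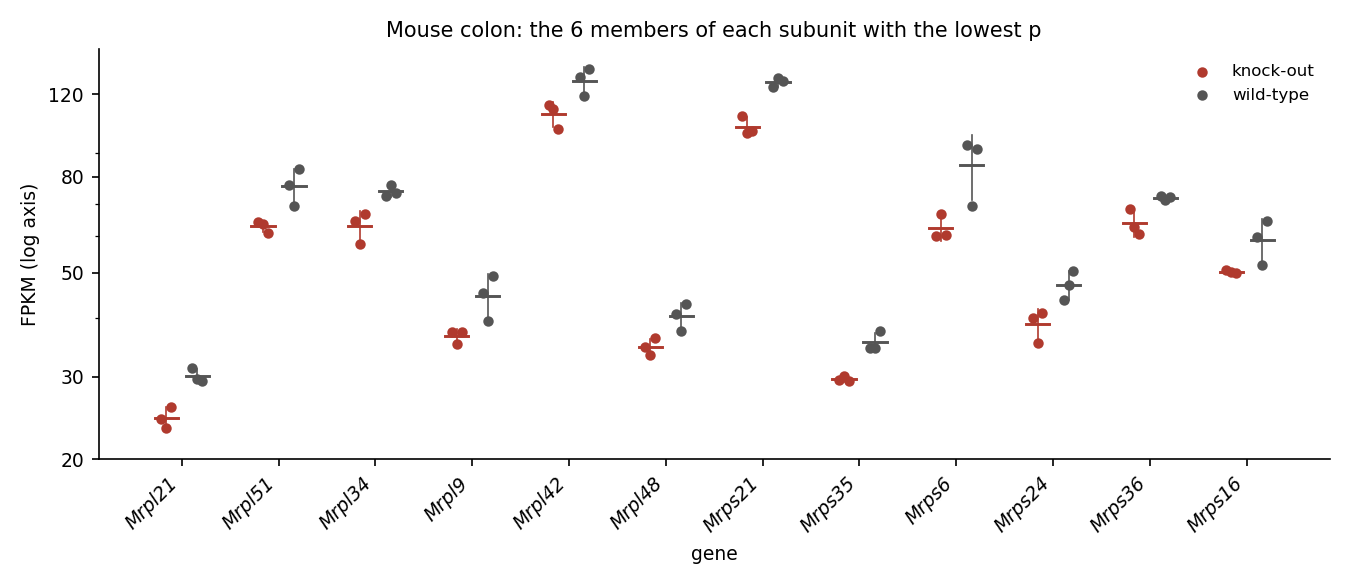
FPKM of named members in each of the 6 mouse colon libraries, on a log axis, with 1 point per library, the group mean as a horizontal line and the SD as a vertical one. Mrps21, Mrps35 and Mrpl21 are lower in all 3 knock-out libraries, and in Mrps6 wild-type replicate 2 (69.4 FPKM) lies close to the knock-outs.

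Wild-type replicate 2 decided whether any member was called in colon. The other wild-types (-1.60 and -4.05) lay apart from all knock-outs (1.92 to 3.08) on the position score. Genotype and colon position therefore cannot be told apart in a fit that leaves out wild-type replicate 2. Without that replicate, 61 of 77 fold changes were negative with a median of -0.11, against -0.017 over all genes. In that fit 5 of 77 members (6.49%) were called lower and 0 higher, against 7.19% and 9.21% of all genes. The 5 were Mrps6 (log2 fold change -0.57, limma, adjusted p = 0.00831), Mrpl51 (-0.34, limma, adjusted p = 0.0328), Mrpl9 (-0.36, limma, adjusted p = 0.0329), Mrps16 (-0.30, limma, adjusted p = 0.0458) and Mrps21 (-0.30, limma, adjusted p = 0.0486). With the colon position score as a covariate, 0 were called, 6 had an unadjusted p under 0.05 with lower values (against 2.25% of all genes), and 71 of 77 fold changes were negative. With it the fold changes of several named members shrank by over 1.5 times, to -0.195 in Mrps6, -0.145 in Mrpl51, -0.14 in Mrpl42 and -0.12 in Mrpl9. Mrpl48 came to -0.12, Mrpl23 to -0.085, Mrps16 to -0.055 and Mrps31 to 0.017. Others grew, to -0.34 in Mrps21, -0.29 in Mrpl34, -0.21 in Mrps18b and -0.13 in Mrps18c. The median over all 77 members was -0.14 with the covariate and -0.12 without it, against -0.038 and -0.024 over all genes. The sum of the adipocyte markers moved with the groups without overlap, and the sums of the other lists overlapped. Plin1 alone of the adipocyte markers overlapped, at 0.21 FPKM in knock-out replicate 2 and 0.26 FPKM in wild-type replicate 2. Summed over 5 adipocyte markers, the level was 43.0 to 81.3 FPKM in knock-out colon and 6.21 to 31.6 FPKM in wild-type, where Lep was listed at 0 in replicates 1 and 3. The 11 epithelial markers summed to 15590 to 18967 FPKM against 11805 to 17834 FPKM. The 8 smooth muscle markers summed to 476 to 758 FPKM against 366 to 594 FPKM, and the 6 immune markers to 96.7 to 153 FPKM against 133 to 348 FPKM. Fold changes were positive in 8 and negative in 3 of the epithelial markers, and positive in 2 and negative in 4 of the immune markers. Car1 ran from 4496 to 7523 FPKM against 945 to 5857 FPKM, and Slc26a3 from 213 to 453 FPKM against 361 to 1351 FPKM. The part of these cell types in the members' values was not tested.

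The subunits did not differ beyond the spread between libraries. In RKO the median log2 fold change was -0.048 over 46 large and -0.037 over 28 small subunit members, a difference of -0.011 where the libraries of a group differed with an SD of 0.0134. Large subunit fold changes were negative in 34 of 46 and small in 21 of 28. In colon the medians were -0.12 over 48 large and -0.10 over 29 small subunit members, a difference of -0.020 against an SD of 0.0541. Single libraries moved these medians: without knock-out replicate 2 they were -0.076 (large) and -0.027 (small), against 0.014 over all genes. The small subunit median was -0.16 without knock-out replicate 1 or wild-type replicate 1, against -0.042 and -0.036 over all genes. With the position covariate it was -0.18, against -0.038. In RKO the large subunit median was -0.017 without doxycycline replicate 2 and -0.028 without untreated replicate 1. The small subunit median was -0.018 without untreated replicate 1 and -0.056 without doxycycline replicate 1. Over all genes the median was -0.013 without doxycycline replicate 2, -0.010 without untreated replicate 1 and -0.012 without doxycycline replicate 1. In colon, negative fold changes numbered 42 of 48 (large) and 24 of 29 (small). The summed signal of the large subunit over that of the small subunit in RKO was 1.622, 1.581 and 1.601 with doxycycline and 1.612, 1.589 and 1.578 without. In colon the ratio of summed FPKM in the knock-out libraries was 1.958, 2.002 and 1.959, and in the wild-type libraries 1.974, 1.921 and 1.930. Both sets of ratios overlapped between groups. Moving MRPS18A and MRPS30 to the large subunit, where they sit in the assembled ribosome, and leaving out MRPS36 gave colon medians of -0.12 over 50 large and -0.12 over 26 small subunit members.

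Within the small subunit of colon, the 16 members with a bacterial counterpart had a median of -0.17 with 15 negative, and the 13 without one had -0.056 with 9 negative. In the large subunit the same medians were -0.12 over 29 and -0.13 over 19. In the small subunit of RKO both medians were -0.037, over 16 and 12 members. Over both subunits of RKO they were -0.037 over 44 and -0.046 over 30 members. The 13 small subunit members of colon include Mrps18a and Mrps30, which sit in the large subunit, and Mrps36. In colon the library medians of the 16 and of the 13 each overlapped between knock-out and wild-type. The difference between the sets was not tested.

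**Figure D5:**
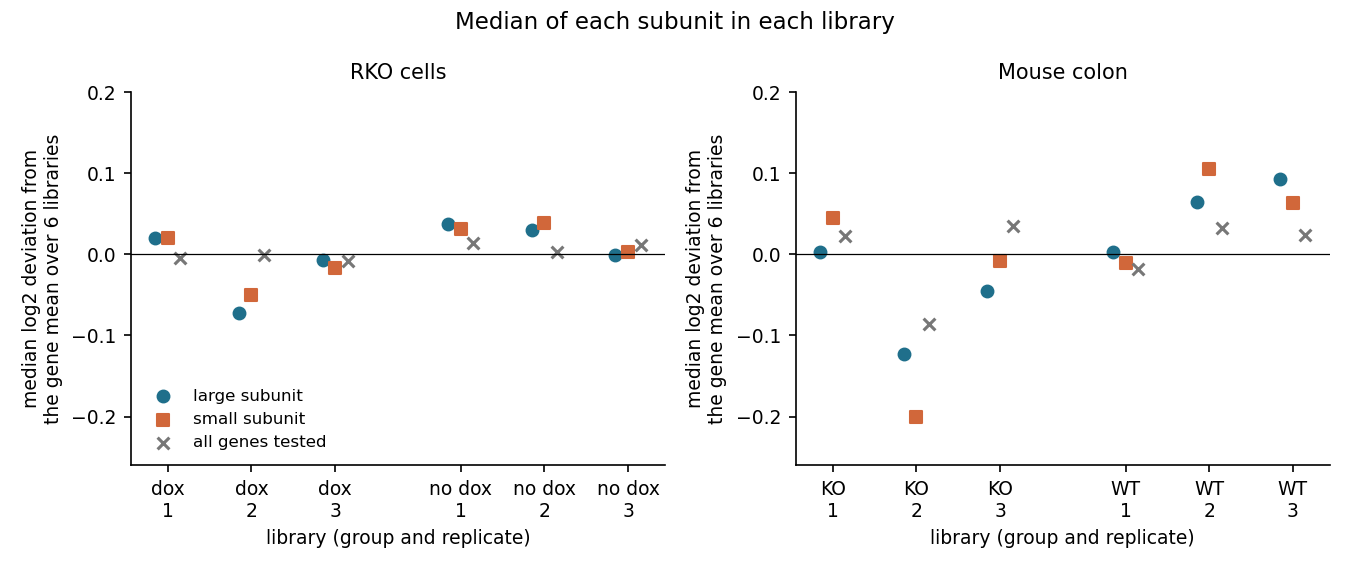
Median log2 deviation from each gene's mean over 6 libraries, for the large subunit, the small subunit and all genes tested, in each RKO and colon library. Doxycycline replicate 2 and knock-out replicate 2 have the lowest medians of both subunits. The groups overlap in both subunits of RKO and in the small subunit of colon. In the large subunit of colon they almost touch, at 0.0033 in knock-out replicate 1 and 0.00337 in wild-type replicate 1.

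The median member deviated from its own mean over 6 libraries by 0.020, -0.059 and -0.0079 in the doxycycline libraries and by 0.035, 0.033 and -0.0010 in the untreated ones. The groups overlapped. Without doxycycline replicate 2, the lowest of them, the median fold change over RKO members was -0.019, against -0.013 over all genes in that fit. In colon the knock-out libraries deviated by 0.014, -0.14 and -0.043 and the wild-type libraries by -0.00052, 0.093 and 0.078, with overlap through knock-out replicate 1. All genes were also low in knock-out replicate 2, at -0.086. Relative to all genes, the members stood at -0.0085, -0.051 and -0.079 in the knock-out libraries and at 0.018, 0.061 and 0.054 in the wild-type ones, without overlap. On this measure the large subunit did not overlap either. The small subunit did, at 0.0215 in knock-out replicate 1 and 0.0075 in wild-type replicate 1. The summed level of all members was 2948, 2665 and 2822 FPKM in knock-out colon and 3020, 3125 and 3175 FPKM in wild-type, without overlap. In RKO the summed signal was 37166, 35535 and 36573 with doxycycline and 37607, 37266 and 36709 without, with overlap.

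Over the 74 members in both tables, 47 had negative fold changes in both comparisons (63.5%, against 34.7% of the genes tested in both), 3 had positive ones in both, 8 were negative in RKO alone and 16 in colon alone. Of the 74, 55 were negative in RKO and 63 in colon when counted separately. Many would thus be negative in both without any link between the comparisons. The Spearman correlation between the log2 fold changes was -0.137, against 0.0272 over 8747 genes tested in both. Members with every treated or knock-out library below every control in both comparisons numbered 4 (5.41%, against 1.49% of the 8747 genes): MRPL23, MRPL48, MRPS18C and MRPS35. Taken separately, 14 of the 74 were below in RKO and 20 in colon, so a few would be below in both without such a link. MRPS35 alone had an unadjusted p under 0.05 in both. Separately, 4 of the 74 had such a p with lower values in RKO and 10 in colon, against 10.2% and 6.48% of all genes. The share of all genes with such a p in both was not counted. MRPL23, whose gene lies beside H19, had 273.8, 276.2 and 278.4 signal against 292.5, 288.8 and 286.5 in RKO (-0.067, limma, adjusted p = 0.490). In colon it had 42.8, 39.8 and 42.6 FPKM against 47.0, 44.4 and 52.2 FPKM (-0.19, limma, adjusted p = 0.404). Mrps18c in colon had 74.1, 71.3 and 68.8 FPKM against 74.3, 79.0 and 76.5 FPKM (-0.10), with the nearest libraries almost touching.

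The other S18 relatives and the members placed elsewhere by later structures had overlapping groups, except Mrps36 in colon. MRPS18A had log2 fold changes of 0.016 in RKO and 0.062 in colon, Mrps18b -0.028 in colon, and MRPS30 -0.039 in RKO and 0.11 in colon, all with overlapping groups. MRPS36, a part of the 2-oxoglutarate dehydrogenase complex and not a stable ribosomal protein, had -0.073 in RKO with overlap. In colon it had 68.3, 62.5 and 60.4 FPKM in knock-out and 72.8, 71.4 and 72.3 FPKM in wild-type, without overlap (-0.18, limma, adjusted p = 0.396). Knock-out values lay entirely below wild-type in 9.79% of all colon genes tested.

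Genes that work with the mitochondrial ribosome were taken from lists of names. Of 8 genes for mitochondrial ribosomal proteins or the insertase OXA1L whose symbols miss the rule, 5 were negative and 3 positive in RKO, and 5 of 7 were negative in colon. Of 13 translation factors, 12 were negative in RKO (median -0.040) and 11 in colon (median -0.097), and none passed the test in either. MRRF, the ribosome recycling factor, had log2 fold changes of -0.15 in RKO (limma, adjusted p = 0.163) and -0.23 in colon. The 26 assembly and rRNA modification genes split 13 to 13 in RKO and 21 to 5 in colon, with a colon median of -0.064. Of 19 mitochondrial aminoacyl-tRNA synthetases in RKO 12 were negative, and of 20 in colon 14 were. The 13 mitochondrially encoded messenger RNAs, which these ribosomes translate, all had positive fold changes in RKO (median 0.13), and 1 passed the test (against 0.385% of all genes called higher): MT-ND1, at 36629 ± 1517 signal with doxycycline and 31525 ± 1058 without (0.22 ± 0.04, limma, adjusted p = 0.0490). That call was lost on leaving out any of the 6 libraries (limma, adjusted p = 0.0598 to 0.158), with quantile normalization or median centring (0.0603 and 0.0598) and with either block (0.119 and 0.221).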

How the data were processed

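RNA was measured in 6 RKO and 6 mouse colon libraries. The deposited RKO values are used as a signal on the scale of normalized read counts: the authors' name for the table contains FPKM and ComBat (a batch correction), yet its columns sum to between 9050161 and 9195211 and its values rise with transcript length. The deposited colon values are FPKM per the file headers. HISAT, Bowtie2, HTSeq, edgeR and hg19 were used upstream per the submitters' processing notes, which give no versions or roles. Neither table gives read depth, and no interval for counting error could be computed.

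Each table was fitted alone. Genes with a mean of at least 1 were tested on log2(value + 1) with limma 3.58.1 (trend) in R 4.3.3, with Benjamini-Hochberg adjustment over all genes and a threshold of 0.05. A fold change is on that scale and understates the change of low genes. The fit was tested on simulated data. GC content came from GENCODE release 29 transcripts, matched by symbol or synonym. Alternatives covered the pseudocount, filter, scaling, variance model, replicate block, covariates and leaving out each library.

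Members were named by rule: the 6 lowest p in each subunit and comparison, the 3 highest and 3 lowest colon levels per subunit, and MRPL23, MRPS18A, MRPS18B, MRPS18C, MRPS30 and MRPS36. From the lists of related genes, any that passed the test could be named, with up to 3 of lowest p. The members and lists were chosen with earlier results of these data known.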

Additional observations from a re-analysis of the deposited data

Results flagged for a closer look

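MRPS31, a small subunit protein, ran in opposite directions in the cells and in the tissue. Its log2 fold change was -0.087 in RKO cells, where all 3 doxycycline libraries were below all 3 untreated ones, and 0.25 in mouse colon, where all 3 knock-out libraries were above all 3 wild-type ones. In RKO it was -0.017 with the GC trend removed, and in colon 0.13 without wild-type replicate 3 and 0.017 with the position score as a covariate. The difference between them was not tested, since the tables come from separate species and were normalized separately.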

How the results depend on the processing

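No member passed the test in RKO under any alternative run, and in colon members did so only without wild-type replicate 2 (5 called, range 0 to 5 over single libraries left out). In that colon fit, genotype and colon position cannot be told apart. The large minus small subunit median ranged from -0.019 to 0.0086 in RKO with single libraries left out. In colon it ranged from -0.049 to 0.044, and adding the position score gave 0.057, so its sign was not stable in either. ZNF280C lost its call with a replicate block (-0.98, limma, adjusted p = 0.0991) and with a block of the libraries that share equal values (-0.98, limma, adjusted p = 0.0769). With single libraries left out it ranged from -0.82 to -1.13, and kept its call only without doxycycline replicate 1. Zfp280c ranged from -1.57 to -1.75 and was called only without wild-type replicate 2 (limma, adjusted p = 0.00205).

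Of the named members, 3 in RKO and 4 in colon changed sign under some alternative. In RKO, removing the GC trend gave MRPS18A -0.015, MRPS30 0.056 and MRPS36 0.020, and MRPS18A ranged from -0.020 to 0.056 with single libraries left out, below 0 without doxycycline replicate 1 (-0.020) or untreated replicate 3 (-0.016). In colon, the position covariate gave MRPL50 -0.040, MRPS18A -0.066 and MRPS30 -0.16. With single libraries left out MRPS18A ranged from -0.014 to 0.19, below 0 without replicate 1 of either group, and MRPS18B from -0.15 to 0.090, above 0 without replicate 2 of either group. The cause was not tested.

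The replicate block called 0 members in RKO and 0 in colon. With it, 3 of 74 members in RKO had an unadjusted p under 0.05 with lower values, against 8.74% of all genes. In colon 6 of 77 did, against 5.68%. The block called 1 gene of the whole RKO table, against 178 without it, and 0 genes of the colon table with it or without it. Deviations of same-numbered libraries correlated at 0.08, -0.53 and 0.06 in RKO and at -0.45, -0.14 and 0.15 in colon. These values cannot decide whether the numbers pair the libraries, since a batch correction, named for the RKO values, can change such correlations. In RKO the value of -0.53 belongs to the replicates 2, which held equal values in 310 genes. The split of RKO calls over all genes was 60 higher and 118 lower, and under other scalings 59 and 67 (equal sums), 69 and 62 (quantile) and 72 and 59 (median centring).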
